A study of Mus musculus with 24 samples.

Results

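Lipid synthesis is controlled by a small set of transcription regulators, and 9 of their genes were followed through whole visceral fat of mice lacking either Pparg or T-bet in regulatory T cells. They are Srebf1 and Srebf2, the genes of the sterol regulatory element binding proteins SREBP1 and SREBP2; Scap, Insig1 and Insig2, which control SREBP processing; Mlxipl, the gene of the carbohydrate response element binding protein ChREBP; Thrsp, a lipogenic protein known as Spot 14; and Nr1h3 and Nr1h2, the genes of the liver X receptors LXR alpha and LXR beta. They were chosen by symbol, not by a measured value. All 9 were found among the 27179 genes counted, and all 9 were among the 17824 genes with enough counts to be tested.

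The tissue was visceral (perigonadal) fat of mice aged 27 to 33 weeks, sequenced as total RNA in 24 libraries, 4 for each of 6 groups. Control females and control males carried Foxp3cre alone, a Cre recombinase driven by Foxp3, the defining gene of regulatory T cells. Pparg knockout (KO) females and males carried PpargFoxp3cre, which removes Pparg in cells with that Cre, and Tbet KO females and males carried TbetFoxp3cre, which does the same for T-bet (gene Tbx21). Cre is thus shared by all 6 groups, and both knockouts of a sex were compared with the same control libraries. Each group held 2 libraries of each of 2 labelled batches, replicates 1 and 3 in batch 1 and replicates 2 and 4 in batch 2. The labels do not state whether each library is a separate animal. The p-values below therefore treat libraries, not animals, as the units. In the main test all 6 groups shared an estimate of the spread between libraries. In whole tissue, fewer cells of a type and less RNA per cell cannot be told apart.

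SREBPs are made as precursors in the endoplasmic reticulum membrane. SCAP, a sterol sensor, escorts them to the Golgi apparatus to be cut into active factors, and INSIG proteins hold SCAP back when sterols are plentiful. The SREBP1c form mainly drives fatty acid synthesis and responds to insulin and to LXR, while SREBP2 mainly drives cholesterol synthesis and uptake. ChREBP answers glucose metabolites, binds DNA with its partner MLX, and in adipocytes raises the same fatty acid enzymes. LXRs are receptors for oxidised sterols that raise cholesterol export genes as well as Srebf1. Insig1 is itself an SREBP target, and Thrsp is a target of thyroid hormone, SREBP1 and ChREBP. Because SREBP activity is set by cleavage and ChREBP activity by movement to the nucleus, RNA levels do not measure the activity of these factors.

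The windows from 250 bases before to 50 bases after the annotated transcription start are shown for Thrsp, Insig1 and Mlxipl, the 3 regulators that differed over the 6 groups and between Tbet KO and control females. They are RefSeq reference sequences of build GRCm38.p6, written 5′ to 3′ on the strand of the gene. Capitals mark matches, on either strand, to 3 motifs: the E-box CACGTG, the sterol regulatory element (SRE) core TCACNCCAC, and the CCAAT box (ATTGG on the other strand).
Thrsp, chr7:97417501-97417800, minus strand: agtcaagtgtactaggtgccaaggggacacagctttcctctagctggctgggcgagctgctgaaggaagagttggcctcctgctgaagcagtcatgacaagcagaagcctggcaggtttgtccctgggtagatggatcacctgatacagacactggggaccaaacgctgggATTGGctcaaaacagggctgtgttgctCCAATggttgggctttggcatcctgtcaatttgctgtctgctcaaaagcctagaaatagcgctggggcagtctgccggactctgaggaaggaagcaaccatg
Insig1, chr5:28071162-28071461, plus strand: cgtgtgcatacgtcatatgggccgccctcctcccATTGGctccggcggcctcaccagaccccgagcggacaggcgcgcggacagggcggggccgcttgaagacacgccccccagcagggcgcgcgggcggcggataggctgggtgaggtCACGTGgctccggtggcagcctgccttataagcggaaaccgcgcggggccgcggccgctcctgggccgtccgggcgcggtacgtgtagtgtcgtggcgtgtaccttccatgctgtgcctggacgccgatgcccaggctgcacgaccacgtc
Mlxipl, first start, chr5:135089640-135089939, plus strand: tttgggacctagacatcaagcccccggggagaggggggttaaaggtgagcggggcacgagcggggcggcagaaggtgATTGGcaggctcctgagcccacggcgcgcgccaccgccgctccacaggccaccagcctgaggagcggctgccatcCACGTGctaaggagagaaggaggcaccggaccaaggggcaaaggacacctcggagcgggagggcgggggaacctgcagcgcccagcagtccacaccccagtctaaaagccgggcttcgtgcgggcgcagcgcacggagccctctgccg
Mlxipl, second start, chr5:135106641-135106940, plus strand: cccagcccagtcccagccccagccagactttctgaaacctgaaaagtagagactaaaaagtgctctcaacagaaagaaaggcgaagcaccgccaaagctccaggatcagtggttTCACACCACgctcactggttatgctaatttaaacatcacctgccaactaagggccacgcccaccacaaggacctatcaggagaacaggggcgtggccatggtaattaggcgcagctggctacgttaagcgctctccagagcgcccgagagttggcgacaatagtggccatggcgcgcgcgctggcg
In Thrsp, CCAAT matches began 79 and 52 bases before the start. In Insig1, a CCAAT match began 216 bases and an E-box 101 bases before the start. The first Mlxipl window held a CCAAT match 173 bases and an E-box 98 bases before the start, and the second held the SRE core 136 bases before it. Over 32851 mouse promoter windows of the same length, the E-box was found in 7.15%, the SRE core in 1.24% and the CCAAT box in 37.4%. Among the 18 windows of the 9 regulators, Fasn and Acly, 4 held an E-box, 1 the SRE core and 9 a CCAAT box. The LXR element, a direct repeat of AGGTCA spaced by 4 bases of any kind, was found in 0.0152% of all windows and in 0 of these 18. Several windows belong to alternative starts of 1 gene and overlap, and a match of letters is a description, not a binding site.

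Library totals ranged from 8345575 to 31022845 counts, with the lowest in Tbet KO female replicate 2 and the next lowest, 9463144, in Tbet KO female replicate 4. These are the batch 2 libraries of that group, and the batch 2 control females held 28093156 and 28219403 counts. Levels below are CPM, counts relative to the library total after scaling by the trimmed mean of M values (TMM). Defining adipocyte genes were abundant in every library: the summed level of 8 adipocyte markers ran from 8230 to 52200 CPM. Control female replicate 1 stood apart with the lowest adipocyte sum, 8230 CPM, and the highest sum of 8 gland or duct epithelium markers, 1330 CPM against 10.2 to 471 CPM elsewhere. Its part in the results was measured by leaving it out. Pparg, whose level in whole fat comes mostly from adipocytes, averaged 217 ± 61.2 CPM (SD, n = 4) in Pparg KO females and 210 ± 134 CPM in control females. Tbx21 averaged 1.34 ± 0.89 CPM in Tbet KO females and 0.937 ± 0.352 CPM in control females, and Foxp3 reached at most 1.51 CPM in any library. Whole-tissue levels therefore do not check a deletion confined to regulatory T cells.

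Per unit of transcript length, Thrsp stood far above the other 8 regulators. FPKM relates fragments to transcript length and library total, and the deposited values also carried a further, unstated scaling between libraries. On this log2 scale the median of Thrsp over the 24 libraries was 9.73, and Thrsp exceeded the next gene in 24 of 24 libraries. Insig1 followed at 6.34, Srebf1 at 6.22, Nr1h2 at 5.80, Nr1h3 at 5.68, Mlxipl at 5.35, Insig2 at 4.89, Srebf2 at 3.92 and Scap at 3.70. Neighbours in this order overlapped: Insig1 exceeded Srebf1 in 16 libraries, Srebf1 exceeded Nr1h2 in 19, Nr1h2 exceeded Nr1h3 in 13, Nr1h3 exceeded Mlxipl in 15 and Srebf2 exceeded Scap in 17. Mlxipl exceeded Insig2 in 22 and Insig2 exceeded Srebf2 in 23. Srebf1, the SREBP gene of the fatty acid arm, thus lay above Srebf2 of the cholesterol arm, whereas the LXR genes lay side by side.

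**Figure D1:**
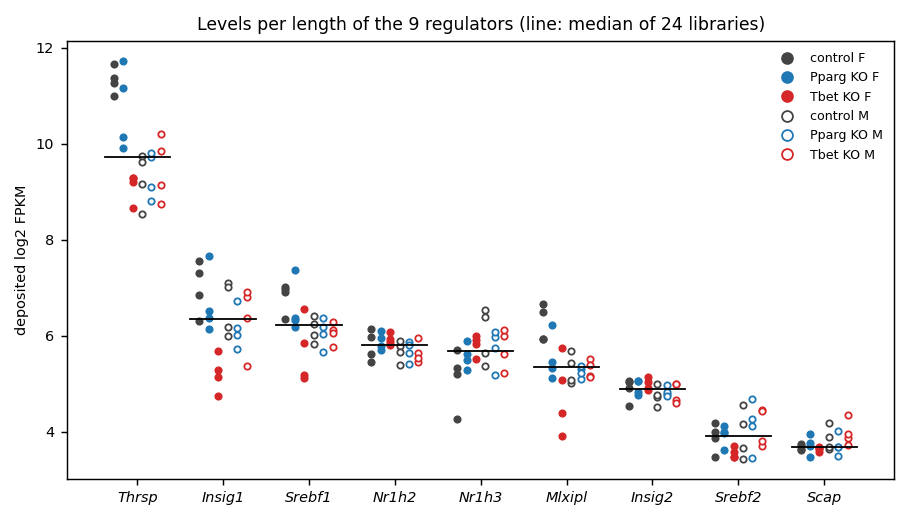
Deposited log2 FPKM (vertical axis) of the 9 regulators (horizontal axis, ordered by median), 1 point per library, coloured by genotype, filled for females and open for males, with a line at the median of 24 libraries. Thrsp lies above the other 8 genes, and Srebf2 and Scap are lowest, with medians of 3.92 and 3.70.

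Of the 9 regulators, 5 varied widely between libraries and 4 varied little. Between the highest and the lowest of 24 libraries, CPM differed 10.1-fold for Thrsp, 7.60-fold for Insig1, 7.15-fold for Mlxipl, 5.55-fold for Nr1h3 and 5.01-fold for Srebf1. The range was 2.30-fold for Srebf2, 1.78-fold for Scap, 1.60-fold for Insig2 and 1.56-fold for Nr1h2. The lipogenic enzymes moved more than any regulator, with ranges of 47.5-fold for Fasn (fatty acid synthase) and 32.7-fold for Acly (ATP citrate lyase). A test of any difference over the 6 groups (edgeR quasi-likelihood F test, Benjamini-Hochberg adjusted over all genes tested) called Thrsp (adjusted p = 0.00114), Mlxipl (0.0313) and Insig1 (0.0412). Of all genes tested, 25.6% were called in that test, so 3 of 9 is near the background. Scap (0.066), Srebf1 (0.094), Srebf2 (0.0964), Nr1h2 (0.228), Nr1h3 (0.252) and Insig2 (0.836) were not called. Thrsp alone was called with no batch term, and also without the 8 libraries with the highest epithelium marker sums. These are called the 8 libraries with epithelial transcripts below, though every library held some.

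**Figure D2:**
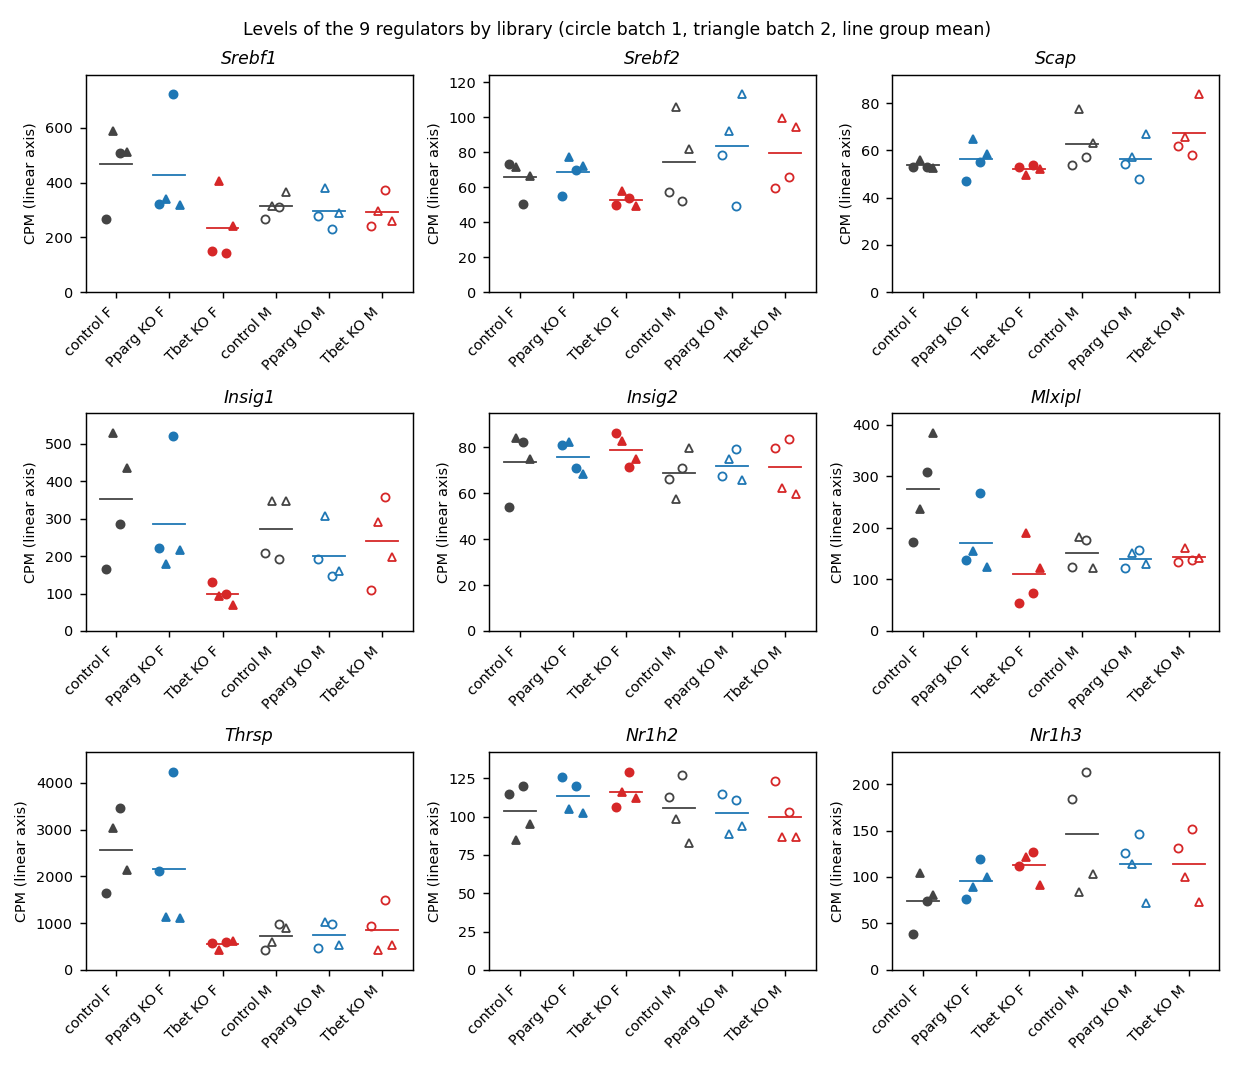
CPM (vertical axes, linear, starting at 0) of each regulator in its own panel, 1 point per library in 6 groups (horizontal axis), circles for batch 1, triangles for batch 2, and a line at the group mean. For Thrsp, the 4 Tbet KO female libraries lie between 419 and 624 CPM, below the control females at 1640 to 3460 CPM, and for Insig2 and Nr1h2 all groups overlap.

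In females lacking T-bet in regulatory T cells, Thrsp, Insig1 and Mlxipl were lower in visceral fat than in control females, and the other 6 regulators were not called. These 3 are 3 of 9 members lower, where 0.64% of all genes tested were called lower, 0.583% higher and 1.22% in either direction. The median log2 fold change was -0.30 over the 9 regulators and -0.04 over all genes tested.

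Thrsp measured 1640, 3030, 3460 and 2130 CPM in control female replicates 1 to 4, and 576, 419, 594 and 624 CPM in Tbet KO female replicates 1 to 4. Every knockout library lay below every control library. The fitted log2 fold change of Thrsp (Entrez 21835, chr7:97412933-97417550) was -2.23 (SE 0.43, adjusted p = 0.0185). Within batches it was -2.12 in batch 1 (adjusted p = 0.0822) and -2.30 in batch 2 (0.0322).

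Insig1 (Entrez 231070, chr5:28071412-28078662) is the sterol-dependent anchor of SCAP. It measured 165, 528, 285 and 436 CPM in control females and 130, 92.7, 100 and 69.5 CPM in Tbet KO females. The groups did not overlap, and control female replicate 1 was the lowest control. The log2 fold change of Insig1 was -1.80 (SE 0.42, adjusted p = 0.0419). It was -0.96 in batch 1 (adjusted p = 0.34) and -2.57 in batch 2 (0.0157), where the control libraries were higher.

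Mlxipl (Entrez 58805, chr5:135089890-135139768) measured 172, 236, 309 and 384 CPM in control females and 53.7, 191, 74.1 and 122 CPM in Tbet KO females. Tbet KO female replicate 2, at 191 CPM, exceeded the lowest control, so the groups overlapped. Its log2 fold change was -1.36 (SE 0.32, adjusted p = 0.0413), with -1.91 in batch 1 (adjusted p = 0.0311) and -0.99 in batch 2 (0.201). Counts per gene do not separate the alpha form of ChREBP from the shorter beta form, which starts at another promoter.

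Without control female replicate 1 the 3 differences were -2.44 for Thrsp (adjusted p = 0.0101), -2.05 for Insig1 (0.0259) and -1.5 for Mlxipl (0.0319). Each of the 3 calls could be lost all the same when 1 other library was left out. Thrsp lost its call without Tbet KO female replicate 1 (adjusted p = 0.0878) or replicate 3 (0.0843). Insig1 lost it in 7 of 8 omissions of 1 library of the groups compared (adjusted p up to 0.127), and Mlxipl in 6 of 8 (up to 0.159), while the log2 fold changes stayed between -2.05 and -1.58 for Insig1 and between -1.72 and -1.13 for Mlxipl. With no batch term none of the 3 was called by edgeR (adjusted p = 0.0528, 0.0828 and 0.105). Over all genes tested, 4.97% had CPM that did not overlap between these groups.

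Srebf1, the fatty acid arm of the SREBPs (Entrez 20787, chr11:60199084-60224186), measured 266, 587, 506 and 513 CPM in control females and 151, 406, 144 and 242 CPM in Tbet KO females. The groups overlapped and the log2 fold change of -1.02 (SE 0.31) was not called (adjusted p = 0.112). It was called by DESeq2 (adjusted p = 0.0207), by limma on log2 FPKM (0.0307) and without the 8 libraries with epithelial transcripts (0.0457). Of those 8 libraries only control female replicate 1, the lowest control, belonged to these groups. Leaving out any 1 library of these groups alone gave no call of Srebf1 (adjusted p from 0.0505 to 0.3). On the log2 FPKM scale control female replicate 1 lay nearer the other controls than by CPM, at 6.36 against 6.91 to 7.01. Its part in these calls was not tested. Counts per gene do not separate the 1a and 1c forms of Srebf1.

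Srebf2 (Entrez 20788, chr15:82147269-82205379) averaged 65.5 ± 10.3 CPM in control females and 52.7 ± 4.05 CPM in Tbet KO females, which gave -0.30 on the log2 scale (SE 0.17, adjusted p = 0.379). Scap (Entrez 235623, chr9:110333288-110384949), the escort of both SREBPs, was almost level at 53.6 ± 1.42 and 52.1 ± 1.82 CPM (log2 fold change -0.03, SE 0.10, adjusted p = 0.911). Insig2 (Entrez 72999, chr1:121304353-121332662), the second SCAP anchor, gave 73.7 ± 13.8 and 78.7 ± 6.83 CPM (0.09, SE 0.14, adjusted p = 0.791), in contrast to Insig1. That contrast between the Insig genes was not tested.

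Of the LXRs, Nr1h3 (Entrez 22259, chr2:91184061-91202829) averaged 74.6 ± 27.3 CPM in control females and 113 ± 15.6 CPM in Tbet KO females (log2 fold change 0.55, SE 0.29, adjusted p = 0.345). The lowest control value, 38.4 CPM, was that of control female replicate 1, and without it the difference was 0.29. Nr1h2 (Entrez 22260, chr7:44549616-44553968) averaged 104 ± 16.6 and 116 ± 9.57 CPM (0.18, SE 0.09, adjusted p = 0.319).

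The enzymes named beside the regulators fell further in the same comparison. Fasn measured 2680, 17900, 5330 and 21000 CPM in control females and 458, 1460, 524 and 2360 CPM in Tbet KO females (log2 fold change -3.20, SE 0.59, adjusted p = 0.0146). Fasn lost its call without Tbet KO female replicate 1 (adjusted p = 0.0751) or replicate 3 (0.068), in batch 1 alone (0.0649) and with no batch term (0.18). In control females and in Tbet KO females alike, the batch 2 libraries were the higher ones. Acly measured 1690, 3090, 3140 and 4960 CPM against 223, 307, 235 and 591 CPM (-3.28, SE 0.48, adjusted p = 0.0039). The differences between the enzymes' and the regulators' fold changes were not tested.

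**Figure D3:**
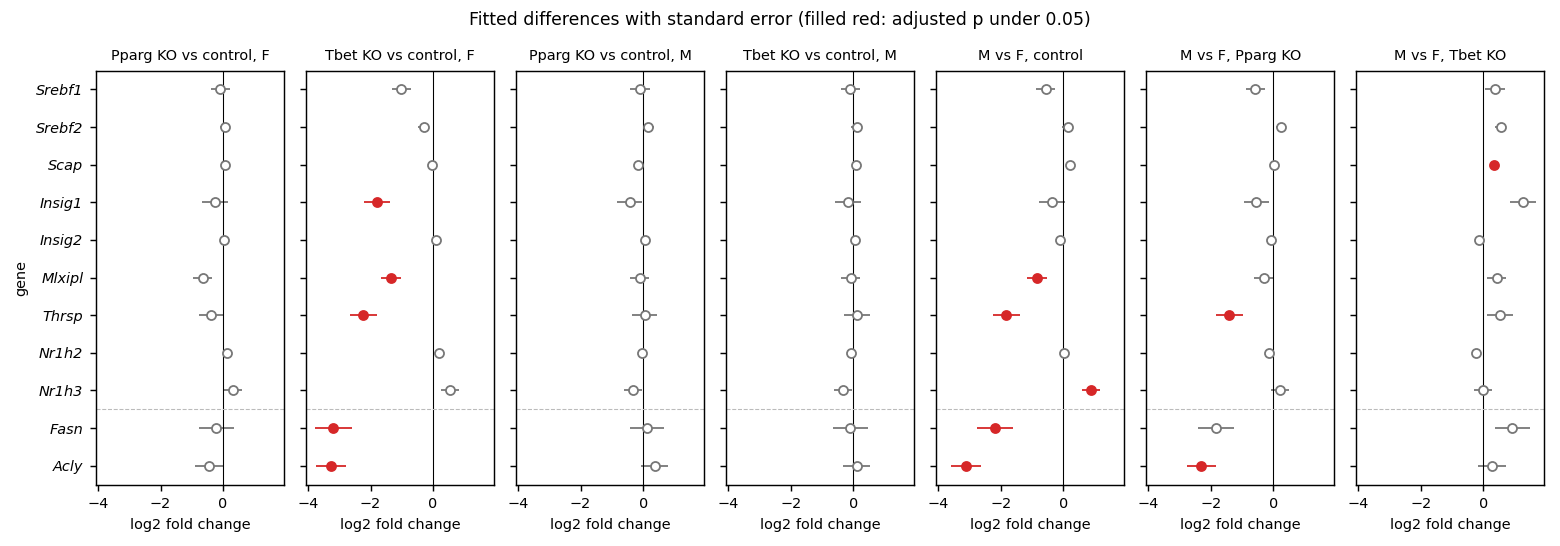
Fitted log2 fold changes (horizontal axes) with standard errors for the 9 regulators and, below the dashed line, Fasn and Acly (vertical axis) in 7 comparisons, filled red where the adjusted p was under 0.05. In the Tbet KO female panel Insig1, Mlxipl and Thrsp are filled at -1.80, -1.36 and -2.23, and in the panels of Pparg KO against control and of Tbet KO males against control males no gene is filled.

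The knockouts showed no called regulator elsewhere. In Pparg KO females, none of the 9 was called, where 0.0168% of genes were. Mlxipl had the smallest unadjusted p of them, 0.04912, with 137, 156, 268 and 124 CPM (log2 fold change -0.65, SE 0.31, adjusted p = 0.417), and it was the 1 regulator of 9 with an unadjusted p under 0.05, where 11.9% of all genes had one. Thrsp, at 2110, 1140, 4230 and 1110 CPM, spanned the whole range of the control females, with replicate 3 above every other library in the series (-0.37, SE 0.41, adjusted p = 0.766). That same replicate 3 was also the highest of its group for Srebf1, at 722 CPM, and for Insig1, at 521 CPM. In Pparg KO males the call rate over all genes was 0% (454 genes, 2.55%, had an unadjusted p under 0.05, and DESeq2 called 1), and 0 of 9 regulators had an unadjusted p under 0.05. In Tbet KO males, where 0.00561% of genes were called, the 9 log2 fold changes lay between -0.34 (Nr1h3) and 0.12 (Thrsp), and again 0 of 9 had an unadjusted p under 0.05, as 4.38% of all genes did.

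Set directly against each other, Tbet KO and Pparg KO females did not overlap for Thrsp (419 to 624 against 1110 to 4230 CPM) or Insig1 (69.5 to 130 against 179 to 521 CPM), where 1.76% of all genes did not overlap. The log2 fold changes, Tbet KO minus Pparg KO, were -1.86 for Thrsp (SE 0.43, adjusted p = 0.191) and -1.54 for Insig1 (SE 0.41, adjusted p = 0.406), and edgeR called neither. In this comparison 0% of all genes were called by edgeR and 5 of 9 regulators had an unadjusted p under 0.05, as did 855 genes (4.8%) in all, while DESeq2 called 104 genes, among them Thrsp and Insig1. In males the same comparison called 0% of genes by edgeR (756, or 4.24%, had an unadjusted p under 0.05) and 6 by DESeq2, with no regulator among either set. A response to loss of Pparg that differs from that to loss of T-bet was therefore not shown for any regulator by the main test.

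Whether the effect of T-bet loss differed between the sexes was tested as the male effect minus the female effect. It was 2.35 for Thrsp (SE 0.59, adjusted p = 0.233), 1.63 for Insig1 (SE 0.58, adjusted p = 0.348) and 1.27 for Mlxipl (SE 0.44, adjusted p = 0.336). None was called by edgeR, where 0.00561% of genes were, though 5 of 9 regulators had an unadjusted p under 0.05, as did 2050 of all genes (11.5%). Thrsp was called by DESeq2 and without the 8 libraries with epithelial transcripts. For loss of Pparg the same test called 0% of genes by edgeR (1095, or 6.14%, had an unadjusted p under 0.05, and DESeq2 called 62), with 0 of 9 regulators at an unadjusted p under 0.05 and none called by DESeq2.

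Control males differed from control females in 3 regulators: Thrsp and Mlxipl were lower and Nr1h3 was higher. Perigonadal fat is a different depot in each sex, lying along the uterus and ovaries or along the epididymis. Over all genes tested 27.2% were called, 13.6% higher and 13.6% lower, and the share with no overlap in CPM was 15.7%. The 2 of 9 lower and 1 of 9 higher are thus near the background.

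Thrsp measured 424, 587, 990 and 896 CPM in control males, all below the lowest control female at 1640 CPM (log2 fold change -1.82, SE 0.42, adjusted p = 0.0043). It was called in each batch alone and without any 1 library of either group. Mlxipl measured 125, 183, 176 and 123 CPM in control males, overlapping with the lowest control female at 172 CPM (-0.85, SE 0.31, adjusted p = 0.0492). Mlxipl lost its call without control female replicate 3 (adjusted p = 0.141) or 4 (0.135), without any 1 of the 4 control males (0.0533 to 0.13), and in each batch alone (0.159 and 0.071).

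Nr1h3 measured 184, 84.3, 213 and 103 CPM in control males against 38.4, 104, 74.6 and 80.9 CPM in control females (0.88, SE 0.29, adjusted p = 0.033). The 2 male libraries of batch 1 were the high ones. In batch 1 the log2 fold change was 1.77 (adjusted p = 0.0039) and in batch 2 it was 0.02 (0.97), so the difference was not found within batch 2. Without control female replicate 1 it was 0.60 (adjusted p = 0.0908), and it was not called without control female replicate 3 (0.103), control male replicate 1 (0.088) or control male replicate 3 (0.122) either. Adipocyte markers moved with it: 2 of 8 were higher in control males, with summed levels of 19200 to 52200 CPM against 8230 to 36300 CPM in control females, and their part in the result was not tested.

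The sexes were also compared within each knockout. Thrsp was lower in Pparg KO males, at 464, 1020, 970 and 529 CPM, than in Pparg KO females (log2 fold change -1.40, SE 0.42, adjusted p = 0.0426), and the groups did not overlap. Here 8.77% of all genes were called, 3.59% higher and 5.18% lower, and 9.06% did not overlap. Thrsp was the 1 regulator of 9 called, so the count is near the background. Without Pparg KO female replicate 3, the library with 4230 CPM, the difference was -0.96 (adjusted p = 0.157). It was not called without Pparg KO female replicate 1 (0.0829) or Pparg KO male replicate 1 (0.161), 3 (0.0955) or 4 (0.0867), and in batch 2 it was -0.54 (0.486).

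Scap was higher in Tbet KO males, at 62.0, 65.8, 58.0 and 83.7 CPM, than in Tbet KO females, at 52.9, 49.7, 54.0 and 51.9 CPM. The groups did not overlap, and the log2 fold change was 0.35 (SE 0.10, adjusted p = 0.037). For the Tbet KO sexes 9.31% of all genes were called, 3.93% higher and 5.38% lower, and 12.4% did not overlap. Scap was the 1 regulator of 9 called, so the count is near the background. Scap lost its call without Tbet KO female replicate 2 (adjusted p = 0.128) or 4 (0.115), or Tbet KO male replicate 1 (0.0652) or 4 (0.116), and it was 0.14 in batch 1 (0.552) and 0.56 in batch 2 (0.0639). Srebf2 also did not overlap, with 59.3, 99.2, 65.7 and 94.1 CPM in males above 49.9, 57.9, 54.0 and 49.1 CPM in females, but it was not called (0.55, SE 0.17, adjusted p = 0.0511). Insig1 was not called either, at 110, 292, 358 and 197 CPM in males (1.27, SE 0.41, adjusted p = 0.0593). Thrsp, at 928, 428, 1500 and 537 CPM in Tbet KO males, overlapped with the females (0.53, SE 0.41, adjusted p = 0.44). Stromal progenitor and mesothelium markers moved with these comparisons of sexes: in Tbet KO males 2 of 6 and 2 of 5 were lower, with sums of 1530 to 2250 against 2850 to 4160 CPM and of 50.8 to 171 against 269 to 556 CPM, and their part was not tested.

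The regulators' known target genes were described from lists of textbook targets. In Tbet KO females against control females, 13 of 16 fatty acid synthesis targets were lower and none higher, with a median log2 fold change of -2.0 against -0.04 over all genes, of which 0.64% were called lower. The named ones were Elovl6, a fatty acid elongase (-4.32, SE 0.60, adjusted p = 0.0039), Acly, Acaca, the enzyme that makes malonyl-CoA (-2.66, SE 0.40, adjusted p = 0.0039), and Me1, malic enzyme (-2.71, SE 0.42, adjusted p = 0.0045). Of 21 cholesterol pathway targets of SREBP2, 10 were lower and none higher, with a median of -1.12. They included Sqle, squalene epoxidase (-1.52, SE 0.24, adjusted p = 0.00512), and Lss, lanosterol synthase (-1.80, SE 0.34, adjusted p = 0.0185), which lost its call without Tbet KO female replicate 1 (0.0891) or 3 (0.0735). Srebf2 itself was not called in this comparison, at -0.30. Adipocyte markers were not called, 0 of 8, with sums of 27300 to 30800 CPM in Tbet KO females and 8230 to 36300 CPM in control females.

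Targets of the other regulators showed fewer calls in the same comparison. Among 11 ChREBP targets outside fatty acid synthesis only Tkt, transketolase of the pentose phosphate pathway, was called, and it was lower (-2.42, SE 0.35, adjusted p = 0.0039). Among 12 tested LXR targets only Abcg1, a cholesterol exporter, was called, and it was higher, at 70.4, 62.1, 64.9 and 65.0 CPM in Tbet KO females against 33.0, 16.1, 29.9 and 20.8 CPM in control females (1.42, SE 0.16, adjusted p = 0.000676). The groups did not overlap, and Abcg1 kept its call in each batch alone and without any 1 library of these groups. In Pparg KO females it measured 37.3, 47.4, 40.1 and 49.1 CPM, also above every control female, though no LXR target was called there. Of all genes, 2.44% did not overlap in that comparison. Every control female library lay below every library of the other groups for Abcg1. Macrophages also carry Abcg1: the summed level of 8 macrophage markers ran from 930 to 1410 CPM in Tbet KO females and from 307 to 909 CPM in control females, with 0 of 8 called, and its part in the result was not tested. Of 20 partners and processing factors, such as Mlx, the site proteases and the RXRs, none was called, and their median was -0.01.

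Between the sexes the target lists split in another way. In control males against control females, where 13.6% of all genes were called lower and 13.6% higher, 10 of 16 fatty acid synthesis targets were lower and none higher (median -1.20), among them Elovl6 (-4.00, SE 0.59, adjusted p = 0.000177) and Acly (-3.11, SE 0.48, adjusted p = 0.000236). Fasn also was lower in control males, at 443, 4820, 675 and 6120 CPM (-2.18, SE 0.57, adjusted p = 0.00913), a call lost with no batch term (0.146). Of 12 LXR targets 5 were higher and none lower (median 0.76, against -0.04 over all genes), with Pltp, the phospholipid transfer protein, at 1.49 (SE 0.20, adjusted p = 5.99e-05), Abcg1 at 1.02 (SE 0.16, adjusted p = 0.000297) and Apoc1 at 1.31 (SE 0.28, adjusted p = 0.00262). Macrophage markers were higher with them, 5 of 8, with sums of 1110 to 1430 CPM against 307 to 909 CPM, and 3 of 4 endothelial markers were higher as well. The part of these cells in the result was not tested. Apoc1 lost its call in 2 of 12 alternatives other than omissions of 1 library. The cholesterol list had 2 genes higher and 4 lower of 21, and the 11 other ChREBP targets 1 higher and 1 lower (Tkt, -2.36, SE 0.35, adjusted p = 0.000165), shares near or below the background. Of the partners, Mlx, the DNA-binding partner of ChREBP, was lower (-0.61, SE 0.18, adjusted p = 0.0183) and Rxra, a partner of LXR, was higher (0.59, SE 0.19, adjusted p = 0.0269). Mlx was no longer called when control female replicate 2 (0.0566) or 3 (0.0536) or control male replicate 2 (0.0541) was left out, and Rxra without control female replicate 1 (0.0601) or control male replicate 1 (0.0539) or 3 (0.0804).

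In the Pparg KO sexes, 6 of 16 fatty acid synthesis targets were lower in males and none higher, where 5.18% of all genes were called lower and 3.59% higher. The smallest adjusted p among them was that of Slc25a1, the mitochondrial citrate carrier (-1.70, SE 0.34, adjusted p = 0.00452). Slc25a1 lost its call in 3 of 12 alternatives other than omissions of 1 library. Among these were batch 2 alone (0.238) and the fit without the 8 libraries with epithelial transcripts (0.126). Of the other lists, 1 ChREBP target was higher and 1 lower (Tkt, -1.85, SE 0.35, adjusted p = 0.00319), 1 LXR target was higher (Pltp, 0.74, SE 0.19, adjusted p = 0.0214), 1 partner was higher (Mlxip, 0.34, SE 0.09, adjusted p = 0.0228) and 0 of 21 cholesterol targets were called, counts near or below the 8.77% called over all genes, apart from 2 of 11 ChREBP targets. Pltp lost its call without Pparg KO female replicate 1 (0.0887) or 3 (0.0772) or Pparg KO male replicate 3 (0.0698). Mlxip lost its call without Pparg KO female replicate 3 (0.08) or Pparg KO male replicate 3 (0.0955). Tkt lost its call in 3 of 12 alternatives other than omissions of 1 library, among them batch 2 alone (0.197).

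In the Tbet KO sexes, where 3.93% of all genes were called higher and 5.38% lower, 7 of 21 cholesterol targets were higher in males and none lower (median 0.74), among them Hsd17b7 at 1.28 (SE 0.23, adjusted p = 0.00211) and Sqle at 1.14 (SE 0.24, adjusted p = 0.00543). In batch 1 alone neither was called (0.157 and 0.223). Of the fatty acid synthesis list 1 gene was called, Scd1, the stearoyl-CoA desaturase, higher in males (2.27, SE 0.38, adjusted p = 0.00117). Scd1 lost its call in 1 of 12 alternatives other than omissions of 1 library. None of 11 other ChREBP targets was called, 2 of 12 LXR targets were higher (Apoc1 at 1.28, SE 0.28, adjusted p = 0.00787, and Pltp at 0.64, SE 0.19, adjusted p = 0.0428), and of 20 partners 2 were higher and 1 lower. Pltp lost its call in 7 of 8 omissions of 1 library, all but that of Tbet KO male replicate 1 (adjusted p up to 0.139). It also lost its call in 7 of 12 other alternatives (up to 0.277), and Apoc1 did so in 2 of 12. In the other comparisons of knockouts 1 gene of the 5 lists was called: Abcg1 had a smaller effect of T-bet loss in males than in females, by -1.5 (SE 0.23, adjusted p = 0.0405). Control females and Tbet KO females enter several of these comparisons, so the results are not independent of each other.

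**Figure D4:**
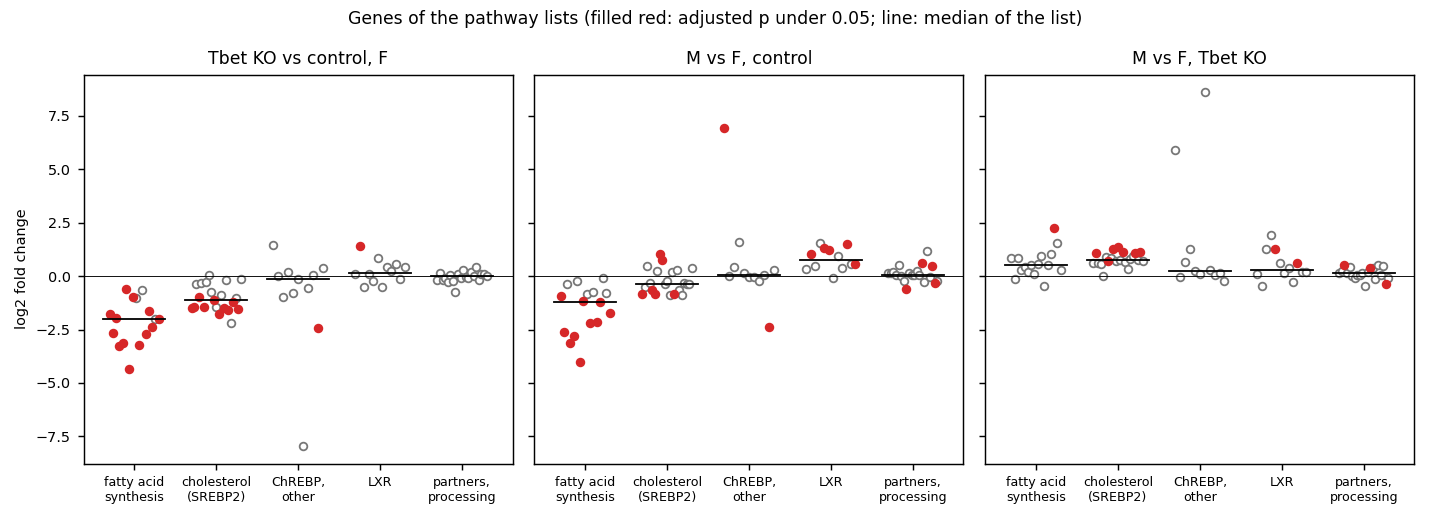
Log2 fold changes (vertical axis) of the genes of 5 lists (horizontal axis) in 3 comparisons, 1 point per gene, filled red where the adjusted p was under 0.05, with a line at the median of the list. In Tbet KO females 13 of 16 fatty acid synthesis and 10 of 21 cholesterol genes are filled below 0, and in Tbet KO males against females 7 cholesterol genes are filled above 0. Points beyond 5 log2 units in the ChREBP lists have standard errors from 1.95 to 3.42.

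Across libraries, the regulators fell into those that followed Fasn and Acly and those that did not. Of 18 relations (9 regulators with each of 2 enzymes, log2 CPM, 24 libraries, two-sided permutation tests with 100000 resamples), 11 had a Benjamini-Hochberg adjusted permutation p under 0.05. The 24 libraries share groups and batches, so they are not independent draws. Fasn was higher in batch 2 in 6 of 6 groups, by 1.95 on the log2 scale on average, and Acly in 5 of 6 by 0.75, so values within batches stand beside the pooled ones.

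Srebf1 followed Fasn with Pearson r = 0.76 (permutation p = 1e-05, the smallest these can give, adjusted 9e-05) and Spearman rho = 0.76 (permutation p = 3e-05). Within batches r was 0.82 and 0.74 over 12 libraries each, and without the 2 libraries farthest from the Fasn median it was 0.69. With Acly it was r = 0.74 (permutation p = 5e-05) and rho = 0.66 (0.00052), with 0.73 and 0.68 within batches and 0.64 without the 2 farthest libraries. Srebf1 thus kept its sign with both enzymes in both batches, though with Acly it missed the adjusted threshold in batch 2 alone (permutation, adjusted p = 0.0546).

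Thrsp followed Acly with r = 0.81 (permutation p = 1e-05) and rho = 0.73 (4e-05). With Fasn the pooled r was lower, at 0.62 (permutation p = 0.00167, rho = 0.64 with p = 0.00088). Within batches Thrsp and Fasn gave r = 0.95 in batch 1 and 0.95 in batch 2 (permutation p = 2e-05 in each), and Thrsp and Acly 0.90 and 0.95. Leaving out the 2 farthest libraries gave 0.51 with Fasn and 0.75 with Acly. The pooled r with Fasn lay below both values within batches, and the reason was not tested. From batch 1 to batch 2 Thrsp differed by -0.42 on average, but it was higher in batch 2 in 3 of 6 groups.

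Mlxipl gave r = 0.66 with Fasn (permutation p = 0.00025, rho 0.51) and 0.69 with Acly (0.00013, rho 0.51), with 0.74 and 0.58 within batches for Fasn and 0.69 and 0.65 for Acly. Without the 2 farthest libraries these were 0.53 and 0.55. Insig1 gave r = 0.68 with Fasn (permutation p = 0.00021, rho 0.68) and 0.62 with Acly (0.0011, rho 0.58), with 0.77 and 0.76 within batches for Fasn and 0.67 and 0.59 for Acly. Without the 2 farthest libraries they were 0.57 and 0.49. In batch 2 alone the relations of Mlxipl with both enzymes and of Insig1 with Acly missed the adjusted threshold (permutation, adjusted p = 0.103, 0.0733 and 0.103).

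Nr1h3 ran the other way, with r = -0.48 with Fasn (permutation p = 0.0166, rho -0.54) and -0.55 with Acly (0.00397, rho -0.66). Without the 2 farthest libraries r was -0.50 and -0.64. In batch 1 r was -0.52 with Fasn (permutation, adjusted p = 0.139) and -0.66 with Acly (0.0337), and in batch 2 it was 0.0067 and -0.066, so only the relation with Acly in batch 1 passed within a batch. For Nr1h2, r with Fasn was -0.54 (permutation p = 0.00675, rho -0.46) but 0.041 and -0.38 within batches, and -0.45 without the 2 farthest libraries (adjusted p = 0.0541), so the pooled relation did not hold within batches. Nr1h2 was lower in batch 2 in 6 of 6 groups, by 0.30 on average. Its relation with Acly (-0.23), and those of Scap, Insig2 and Srebf2 with either enzyme, were not called (r from -0.11 to 0.41, adjusted p from 0.073 to 0.866).

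When each library was set against the mean of its own group and batch, so that only differences between the 2 libraries of a pair remained, none of the 18 relations passed adjustment over 12 pairs (exact sign-flip test). The largest was Thrsp with Fasn, r = 0.81 (exact p = 0.00684, adjusted 0.123). Insig1 with Fasn gave 0.77 and Srebf1 with Fasn 0.62 (exact test, adjusted p = 0.359 for each). Nr1h3, negative when pooled, was positive here, at 0.61 with Fasn and 0.47 with Acly (exact test, adjusted p = 0.308 and 0.402).

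**Figure D5:**
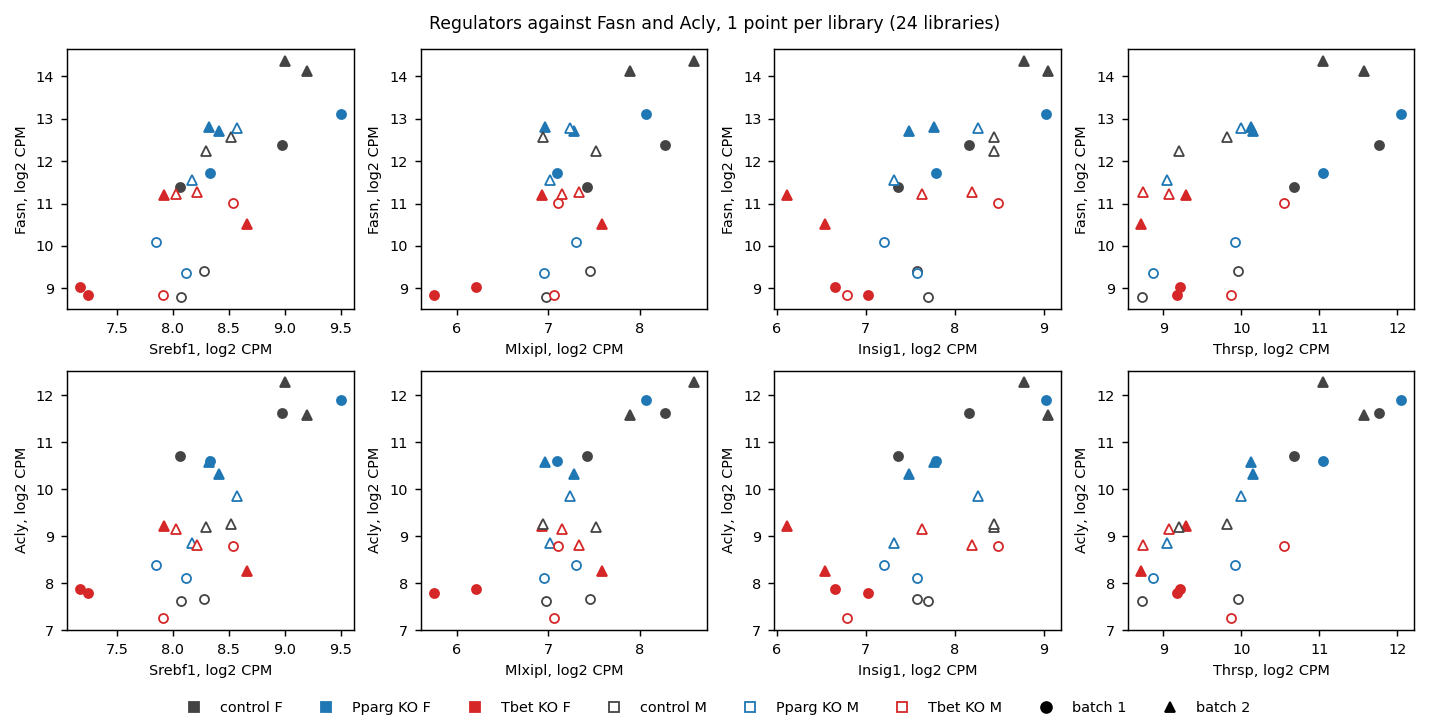
Log2 CPM of Fasn (top) and Acly (bottom) on the vertical axes against log2 CPM of Srebf1, Mlxipl, Insig1 and Thrsp on the horizontal axes, 1 point per library, coloured by genotype, filled for females, circles for batch 1 and triangles for batch 2. Points rise to the right in each panel, with pooled r from 0.62 to 0.81, and for Thrsp with Fasn the 2 batches form parallel bands.

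The regulators' likeness to each other and to other genes was described with Pearson r of log2 CPM over the 24 libraries after removing the batch mean, with no test, since libraries share groups and depth. Srebf1 was closest among the regulators to Mlxipl (0.85), then Thrsp (0.78) and Insig1 (0.73), and had almost no relation to Srebf2 (0.07). Srebf2 was closest to Scap (0.66). The Insig genes were unrelated (-0.02), and so were the LXR genes (0.01). Among 12651 genes searched, those most like Srebf1 were Sc5d (0.92), a cholesterol synthesis enzyme, and Aacs (0.91), acetoacetyl-CoA synthetase, with Sh2b2 (0.91) next. Aacs (0.85) was also the gene most like Mlxipl, before Srebf1 (0.85) and Atrn (0.83).

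For Thrsp the closest genes were Me1, Pdhb (a pyruvate dehydrogenase subunit) and Fasn, each at 0.95. For Insig1 they were Aldh1a7 and Lactb2 at 0.92 and Pmvk, a mevalonate pathway kinase, at 0.91. Genes most like Srebf2 included Sox9 (0.86) and Grb7 (0.84), and Scap was most like Gk and Mvb12b (0.82 each) and Trib2 (0.78). Genes most like Nr1h3 included Cidec, a lipid droplet gene that is also 1 of the 8 adipocyte markers (0.97), and Chp1 (0.96). For Nr1h2 the closest were Stmn2 (0.79), Rps12-ps24 (0.75) and Sorbs3 (0.74), and for Insig2 Dock11 (0.85), Mrpl9 (0.81) and Lonp2 (0.80).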

How the data were processed

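RNA of whole visceral fat was sequenced in 24 libraries. The authors deposited 1 table of raw counts for 27179 genes, made with featureCounts (the submitters' processing notes name this tool and the builds GRCm38 and mm10) and the authors deposited 24 tables of log2 FPKM for 15764 genes. Aligner, annotation, strand use and tool versions were not given in the sources used here, so reads of overlapping genes cannot be told apart. In the deposited log2 FPKM tables, 2481 genes had the same value in 2 or more libraries. The values were not a plain division by length and library total. Fasn stood at 9.33 in control female replicate 3 (5330 CPM), control male replicate 2 (4820 CPM) and Pparg KO female replicate 4 (7110 CPM). Thrsp was higher in control female replicate 1 than in replicate 2 on that scale (11.36 against 11.26), but lower by CPM (1640 against 3030). A further scaling between libraries was thus present, and its method is not stated. The log2 FPKM values served for the order of levels per length and for 1 alternative test. Genes with no symbol, 1029 in number, took 0.433% of all counts and stayed in the fit.

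The counts were fitted with edgeR 4.0.16 (R 4.3.3): filterByExpr by group (17824 genes), TMM scaling and the robust quasi-likelihood F test. All 24 libraries entered 1 model with terms for the 6 groups and for batch (17 residual degrees of freedom), tested for 11 comparisons and for any difference over the groups. A gene was called at a Benjamini-Hochberg adjusted p under 0.05 over all genes tested, and adjusted p-values are edgeR's unless another tool is named. The common biological coefficient of variation was 0.404. Library totals of 8345575 to 31022845 counts put every regulator far above counting noise, and reads are not independent molecules. The fit was tested on simulated data with known changes. Log2 CPM used a prior count of 2. Relations were computed in Python 3.11.15 with NumPy 2.4.6 and adjusted over 18. Deviations from group-and-batch means were tested by all 4096 sign flips of the 12 pairs of libraries, in place of the permutation first planned, because the 2 deviations of a pair mirror each other. Alternatives were DESeq2 (1.42.0) and its size factors, limma (3.58.1), no filter, no batch term, a replicate block, each batch alone, only the groups compared and each library left out. After seeing the marker sums, 1 more was added, without the 8 libraries with the highest summed epithelium markers. They were control female replicate 1, control male replicate 2 and Pparg KO female replicates 2 and 3. Pparg KO male replicates 1 and 4 and Tbet KO male replicates 2 and 4 made up the rest. Their sums ran from 186 to 1330 CPM, and the next library lay at 147 CPM. No Tbet KO female was among them, so the groups left were unequal in size.

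Control female replicate 1 has another batch in its source name than in its title; the title was followed, and the other batch was tried. No 2 libraries had identical counts. Same-numbered libraries did not deviate together on median (median r of residuals from -0.24 to -0.063, highest single r 0.586), so numbers were not treated as pairs. The titles reuse the same numbers in both batches of a group, and whether such libraries share an animal was not examined. Promoter windows are RefSeq sequences of GRCm38.p6, matched by symbol for 9 of 9 regulators. The rule for named genes took the 9 regulators, Fasn, Acly, Pparg, Tbx21 and Foxp3, up to 3 genes most like each regulator among genes with a symbol whose mean log2 CPM was 1 or more, and up to 4 called genes with the smallest adjusted p of each list in each comparison; Mlxip and other genes named only as 1 of a count were chosen after their values were seen. A few genes that the rule takes are not reported here. The regulators, lists and tests were chosen with earlier results of these data known.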

Additional observations from a re-analysis of the deposited data

Results flagged for a closer look

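Single libraries lay far from the other 3 of their group in 3 of 66 groups of values checked (11 genes in 6 groups). The gap to the nearest library, as a share of the group's range, exceeded Dixon's 95% critical value, which chance gives in about 1 in 20 groups. Srebf1 reached 722 CPM in Pparg KO female replicate 3, while the other 3 lay between 319 and 341 CPM. Without that library the log2 fold change of Srebf1 against control females was -0.55 (adjusted p = 0.39). For Scap, control female replicate 2 reached 55.7 CPM while the other 3 controls lay between 52.6 and 53.1 CPM, a gap that is small in itself. Fasn was at 462 CPM in Tbet KO male replicate 1, against 2060 to 2490 CPM in the others, and Acly and Insig1 were lowest in the same library, at 152 and 110 CPM.

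Abcg1, the cholesterol exporter among the LXR targets, was the 1 gene of 17824 tested that the main edgeR test called for a response to T-bet loss that differed between the sexes. DESeq2 called 231 genes in the same test, batch 1 alone 183, the fit without the 8 libraries with epithelial transcripts 30 and only the groups compared 25. The male minus female effect was -1.5 on the log2 scale (SE 0.23, adjusted p = 0.0405). The effect was 1.42 in females and -0.08 in males. In Abcg1 CPM every control female library lay below every library of the other groups, those of Pparg KO females included. The interaction was not called with DESeq2 size factors (adjusted p = 0.0549), with a replicate block (0.107), with no batch term (0.168) or with the batch of the source name (0.0986). It was not called in batch 2 alone either (0.0709), nor in 14 of 16 omissions of 1 library of the 4 groups, and it was called by DESeq2 (8.74e-07) and by both limma fits (0.000399 and 0.00595).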

How the results depend on the processing

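Of 160 alternative values for regulators called in the main test, 69 missed the threshold and 0 changed sign. Of 1964 for regulators not called, 20 passed it and 165 changed sign without a call. Causes were not tested. In Tbet KO against control females, 3 regulators were called, against 1 with no filter, 0 with no batch term, 1 in batch 1 alone, 1 with only the groups compared and 4 (Srebf1 added) with DESeq2, log2 FPKM or without the 8 libraries with epithelial transcripts, and 0 to 3 when 1 library was left out. In control males against females, 3 fell to 1 in batch 2 alone and with only the groups compared, and ran from 1 to 3 by library. In the Pparg KO sexes, 1 fell to 0 with no filter, no batch term, batch 2 alone, only the groups compared or without the 8 epithelial libraries, and ran from 0 to 1 by library. In the Tbet KO sexes, 1 became 0 with no filter, no batch term, batch 1 alone, log2 FPKM or without the 8 libraries. It became 2 with DESeq2 size factors, the batch of the source name, batch 2 alone or only the groups compared. With voom or DESeq2 it became 3, and it ran from 0 to 2 by library. The regulators counted were not always the same. Scap, called in the main test, lost its call in 8 of 12 alternatives other than omissions of 1 library. Batch 2 alone was among these. Over the 6 groups, 3 became 1 with no batch term or without the 8 libraries and 6 with DESeq2, with 1 to 5 by library. DESeq2 called 2 between Tbet KO and Pparg KO females, and DESeq2 and the fit without the 8 libraries each called 1 for the sex difference of T-bet loss, where the main test called 0.

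Of 18 relations, 11 were called, 4 in batch 2 alone, 0 as deviations from group-and-batch means, and 10 to 12 by library. Among the 11 called relations, signs turned for Nr1h2 with Fasn in batch 1 (0.041) and for Nr1h3 with Fasn in batch 2 (0.0067). As deviations they turned for Nr1h3 with Fasn (0.61) and with Acly (0.47). Some relations not called also changed sign, such as Srebf2 with Fasn, at 0.41 pooled and -0.27 as deviations. By CPM, not per length, Srebf1 ranked 2, Insig1 3, Mlxipl 4, Nr1h2 5 and Nr1h3 6.

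A replicate block took the Tbet KO sexes from 1 regulator to 0 (Scap, adjusted p = 0.0552) and Insig1 in Tbet KO females out of the calls (adjusted p = 0.057); over all genes, calls in Tbet KO females went from 218 to 128. No pairing by replicate number was seen, as 3 of 24 libraries correlated best with a library of the same number in another group. A weak correlation does not show that no animals or litters were shared.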
